A study of Mus musculus with 20 samples.

Results

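The 9 genes described here carry retinol, turn it into retinoic acid, or bind, sense or break down retinoic acid: Aldh1a1, Aldh1a2, Aldh1a3, Rbp4, Crabp1, Crabp2, Rarb, Stra6 and Cyp26b1. They were taken by symbol from the 31053 genes of the count matrices, and all 9 were found. The data are single-cell RNA-seq of the stromal vascular cells of mouse interscapular brown adipose tissue (iBAT), in 20 libraries from 10 experiments. Each experiment was split by magnetic beads that bind CD5, CD11b, B220, Gr-1, 7-4 and Ter-119 into a lineage-positive (Lin+) and a lineage-negative (Lin-) library, and each library pooled tissue of 3 to 4 mice aged 8 to 14 weeks.

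Male C57BL/6J (C57) mice were kept at 24 °C (RT), housed at 6 °C during 4 days (COLD), or given 0.75 nmol per hour of CL316,243 (CL) by infusion at 24 °C over 4 days, an agonist of the beta-3 adrenergic receptor. Each of these groups had 2 experiments. Female mice of the Adrb1 line carried Adrb1 fl/fl and received tamoxifen; those with Pdgfra-CreER +/- are the Adrb1 KO and those with Pdgfra-CreER -/- the WT, so that both share the floxed allele and the drug, and recombination is limited to cells in which the Pdgfra promoter is active. The line had 1 experiment per genotype at RT, made with kit version 3, and 1 after 4 days at 6 °C, made with kit version 2. Cold and kit version therefore cannot be told apart there, and its values have no test of their own. The 95% exact Poisson intervals printed in parentheses with many of them cover counting error only.

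Retinol travels in blood bound to RBP4 and can enter cells through the receptor STRA6. Retinol is oxidized to retinal, which the ALDH1A enzymes convert irreversibly to retinoic acid, and CRABP proteins hold retinoic acid in the cytosol. Retinoic acid activates the nuclear receptors RARA, RARB and RARG paired with RXRs, and CYP26 enzymes inactivate it. In adipose tissue, RBP4 is known as a product of adipocytes, and retinoic acid is known to act on adipocyte differentiation and on thermogenic genes.

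After the cell filters, 66339 Lin- and 59935 Lin+ cells remained, with 7857161 to 31325800 UMIs in a Lin- library, 9388618 to 41979840 in a Lin+ library, and a median of 1204 to 3881 UMIs (unique molecular identifiers, 1 per captured RNA molecule) per cell over the Lin- libraries and 1864 to 4358 over the Lin+ libraries. Clusters were named from marker lists. The 3 adipose stromal cell subtypes are called ASC1-like, ASC2-like and ASC3-like. These, the Cthrc1-high cells, the vascular endothelial (VEC-like), mural and Schwann-like cells come from Lin- libraries, the immune classes from Lin+ libraries. Levels are corrected UMI counts of a class in a library, scaled to the total of that class (CPM), for classes of at least 20 cells. The class named luminal epithelial-like raised 7 of 7 markers in its larger cluster and 6 of 7 in the smaller, which was led by Wfdc18 and Ltf. The markers were raised in the Adrb1 line, whereas in the COLD libraries of C57 mice all 7 were at 0, so the C57 cells that fell there are given no cell type name. Targeted Adrb1 in the 3 ASC classes together stood at 1.57 CPM (14 counts) in WT at RT and 2.62 CPM (46 counts) in WT in the cold, against 0 counts in 1230 KO cells at RT (upper bound 0.786 CPM) and 0.572 CPM (7 counts) in KO in the cold.

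Some libraries stood apart. RT replicate 2 of Lin- kept 27.96% of its barcodes, because 72.0% passed the limit on mitochondrial reads. The Lin- library of KO at RT kept 57.7%, with 41.3% past that limit. CL replicate 1 held 5539 VEC-like and 919 Cthrc1-high cells, against at most 1263 and 273 in any other C57 library. The Lin+ and Lin- libraries of CL replicate 2 shared 1098 barcodes, and 1018 of the 1127 stromal cells in that Lin+ library were among them. Stromal levels below come from Lin- alone, and without the shared barcodes the calls below numbered the same against RT (2 in COLD, 0 in CL) and 1 in place of 0 for COLD against CL.

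**Figure D1:**
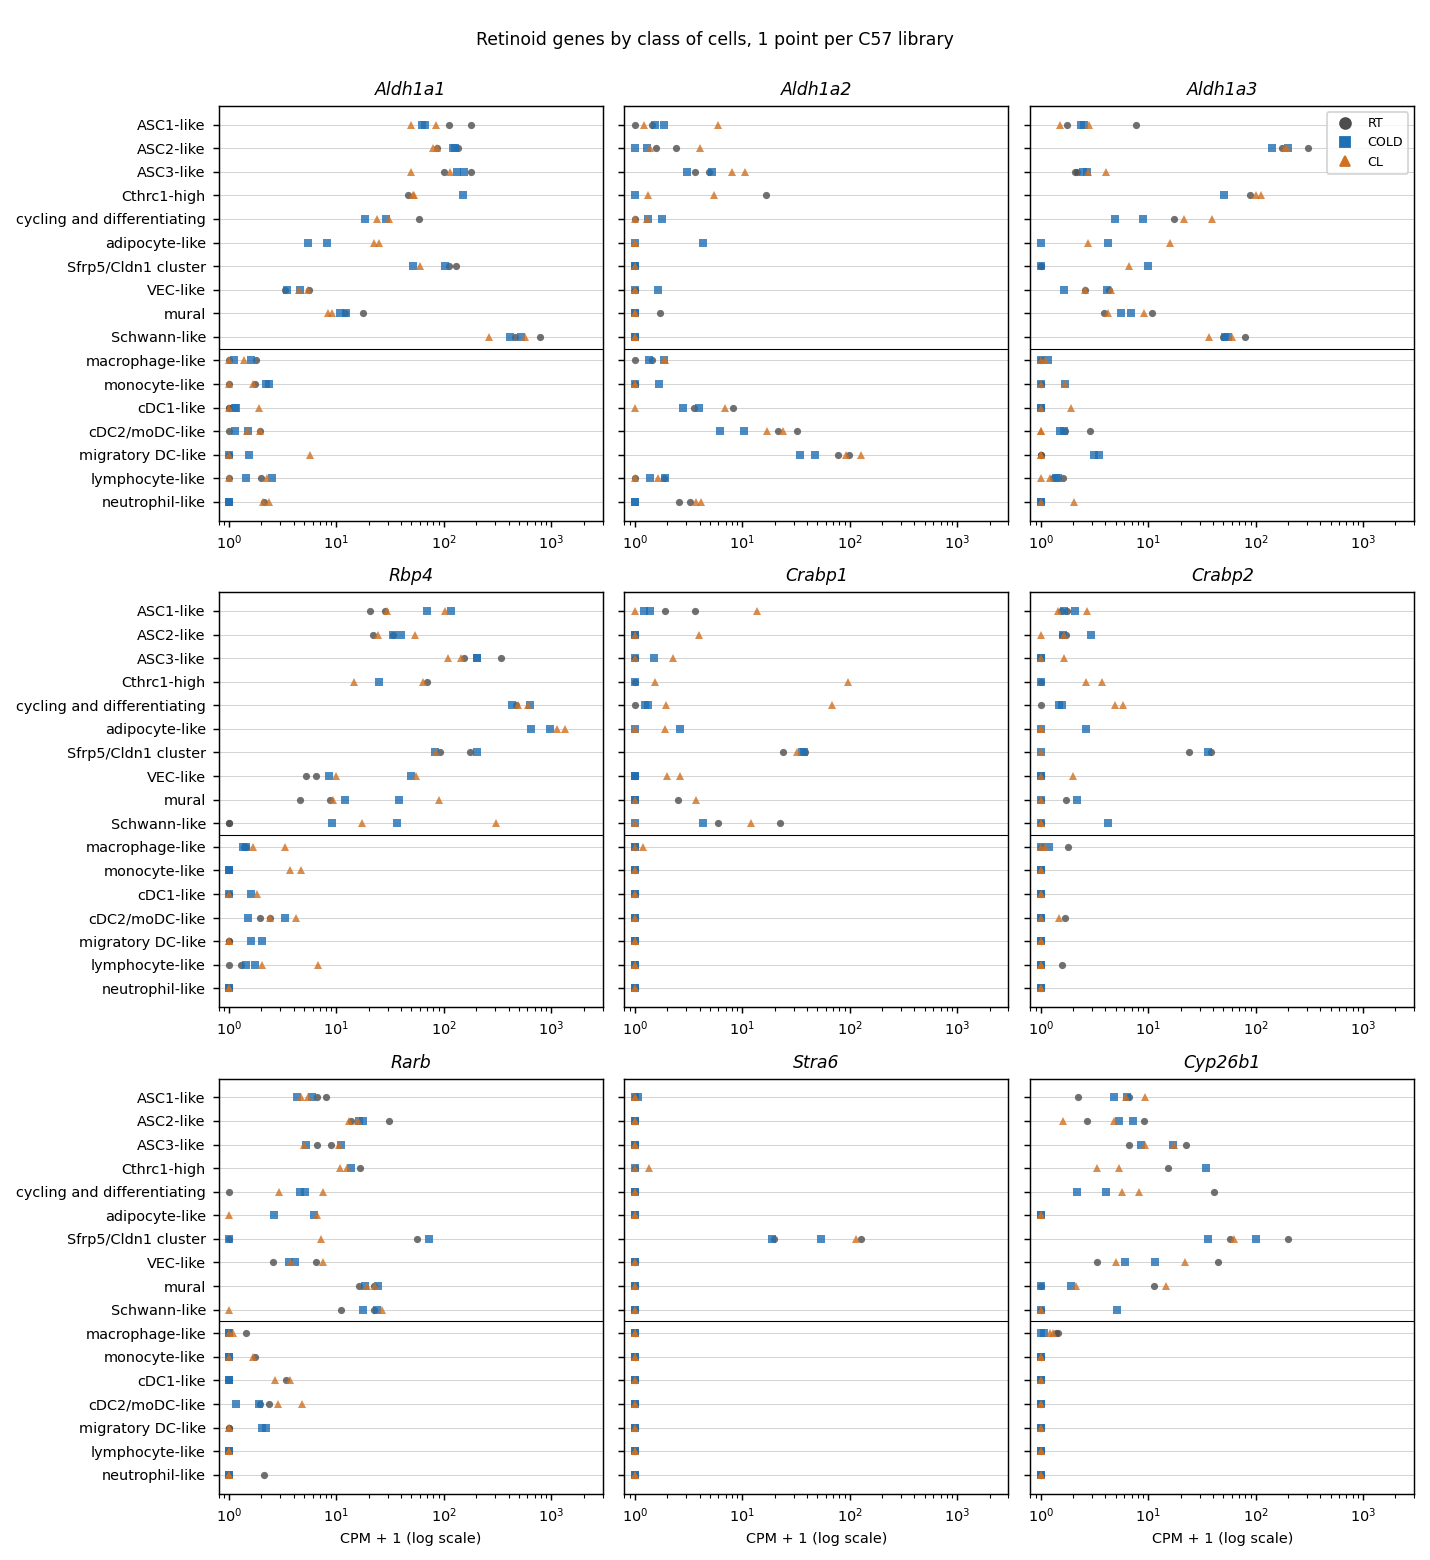
CPM + 1 on a log axis for each of the 9 genes in 17 classes, with 1 point per C57 library holding at least 20 cells of the class, circles for RT, squares for COLD and triangles for CL, and immune classes of Lin+ under the line. Aldh1a1 and Aldh1a3 lie in stromal and Schwann-like cells, Aldh1a2 in migratory DC-like and cDC2/moDC-like cells, Rbp4 in adipocyte-like, cycling and ASC3-like cells, and Stra6 almost wholly in the Sfrp5/Cldn1 cluster.

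Each gene had its own distribution over the 30 classes, and these are descriptions, since the classes were built from the same cells, although with the 9 genes and the other pathway genes left out of the clustering. Rbp4 reached 5 CPM in at least 1 C57 library in 22 classes, Rarb in 18, Aldh1a1 in 17, Aldh1a3 in 15, Cyp26b1 in 14, Aldh1a2 and Crabp1 in 9 each, Crabp2 in 2 and Stra6 in 1. Some of these rest on 1 library or 1 count. Crabp1 passed in ASC1-like and Cilp/Myoc cells only in CL replicate 1, and Crabp2 in pDC-like cells at 5.54 CPM from 1 count. The 3 enzymes that make retinoic acid were highest in 3 different kinds of cells: Aldh1a1 in Schwann-like, Aldh1a2 in migratory dendritic-like and Aldh1a3 in ASC2-like cells.

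Treatments were compared with edgeR's quasi-likelihood test on the summed counts of each class, with Benjamini-Hochberg adjustment over all genes. COLD against RT could be tested in 12 classes, in which 23 of the 108 combinations of a gene and a class, from 7 genes, had enough counts to be tested. 2 of these 23 were called at an adjusted p under 0.05, where the background over all genes and classes was 6.89%: Rbp4 rose in ASC1-like cells and Aldh1a2 fell in dendritic-like cells, and both calls were lost when single libraries or, for Aldh1a2, 1 cluster were left out. 5 of the 23 had an unadjusted p under 0.05. Among the 5 was Aldh1a2 in migratory DC-like cells, a class chosen for the test after its values were seen. Those cells are also part of the dendritic-like class, so this result is not separate support. So had 3492 of all 12268 genes tested in ASC1-like, 3307 of 10212 in dendritic-like, 644 of 2963 in migratory DC-like and 1065 of 10238 in VEC-like cells. CL against RT gave 0 calls among 23 (background 1.09%), and DESeq2 also gave 0. 7 had an unadjusted p under 0.05. So had 1673 of all 12268 genes tested in ASC1-like, 792 of 10846 in ASC2-like and 693 of 10335 in ASC3-like cells. For VEC-like and mural cells the numbers were 788 of 10238 and 896 of 9616. COLD against CL gave 0 calls among 30 (background 1.13%). 9 had an unadjusted p under 0.05. So had 1187 of all 11977 genes tested in cycling, 1348 of 12268 in ASC1-like and 672 of 10846 in ASC2-like cells. For ASC3-like, dendritic-like and migratory DC-like cells the numbers were 401 of 10335, 1567 of 10212 and 275 of 2963. The 9 include Aldh1a2 in the migratory DC-like class. They also include Crabp1 and Crabp2 in cycling cells, which passed the count filter only through CL libraries and are not read as differences between treatments. With the replicate number as a block, for which no share over all genes is given, COLD against CL gave 3 calls. CL against RT then gave 1, Rbp4 in ASC1-like cells. The 3 of COLD against CL were Aldh1a2 in dendritic-like cells and Aldh1a3 and Crabp1 in cycling cells, of which Crabp1 passed the count filter only through CL replicate 1 and is not read as a difference between treatments. The median log2 fold change of the tested members was -0.13 in COLD, where the class medians of all genes lay between -0.03 and 0.02. Cthrc1-high cells reached 20 cells in 4 of the 6 C57 libraries and could not be tested.

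**Figure D2:**
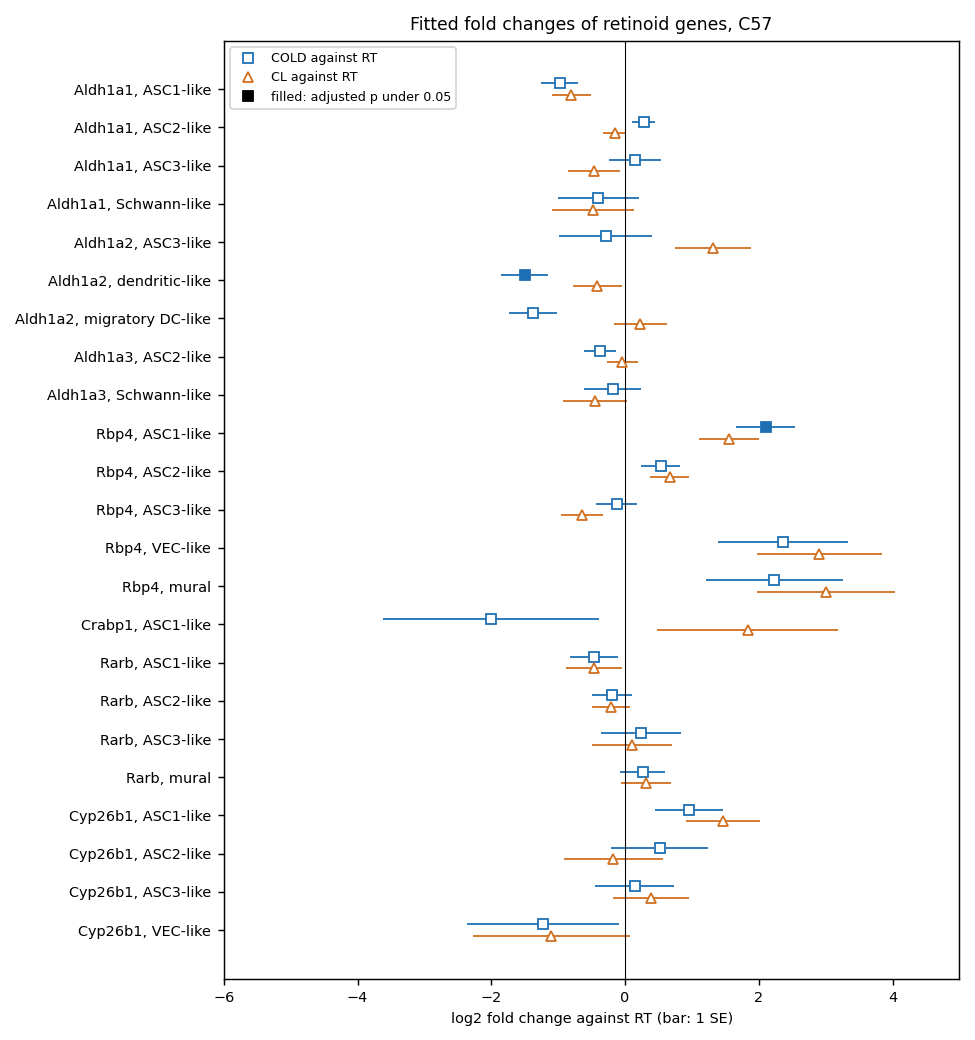
Fitted log2 fold changes against RT in C57 mice for each tested gene and class, with bars of 1 SE, squares for COLD and triangles for CL, and filled symbols for an adjusted p under 0.05. The filled symbols are Rbp4 in ASC1-like cells at 2.10 and Aldh1a2 in dendritic-like cells at -1.50.

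Rbp4 (chromosome 19: 38116620 to 38125321, GRCm38.p6), the carrier of retinol, was highest in adipocyte-like cells, a cluster in which all 11 mature adipocyte markers were raised. Its level there was 652 and 964 CPM in COLD against 1121 and 1329 CPM in CL, and no RT library had 20 such cells. The cycling and differentiating stromal cells, a class whose clusters raised cell cycle genes and, in 2 of 3 clusters, adipocyte genes such as Adipoq and Car3, held 55.8% of all Rbp4 counts of the C57 mice. In that class Rbp4 was 470 CPM in the only RT library with 20 cells, 636 and 427 CPM in COLD, and 605 and 488 CPM in CL. Over the C57 libraries the ranges of adipocyte-like, cycling and ASC3-like cells, in this order, did not overlap. At RT the WT of the Adrb1 line did not keep this order. Its 43 cycling cells had 34.7 CPM (9.58 to 90.004), below the ASC3-like 107 CPM (96.4 to 117). In the cold cycling cells were above, with 222 CPM (208 to 236) in WT and 269 CPM (244 to 295) in KO, against 185 CPM (170.0 to 201) and 221 CPM (202 to 242) in ASC3-like cells. The class pools unlike clusters. In C57 mice the cluster led by Cenpf and Hmmr, with 0 of 8 adipocyte markers raised, had 30.6 to 161 CPM of Rbp4. The cluster led by Car3 and Rrm2 had 634 to 873 CPM. The Cenpf/Hmmr cluster was 27.1% and 39.6% of the class in C57 COLD, but 68.7% in WT and 66.3% in KO of the Adrb1 line in the cold. No library of that line had 20 adipocyte-like cells.

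Among the stromal subtypes at RT, Rbp4 was a gene of ASC3-like cells. It measured 154 and 337 CPM in ASC3-like cells at RT, 202 and 205 CPM in COLD, and 109 and 144 CPM in CL. In ASC2-like cells it was 20.7 and 32.5 CPM at RT, 39.3 and 32.3 CPM in COLD, and 53.1 and 23.5 CPM in CL. Neither subtype was called in either treatment, with log2 fold changes in COLD of -0.13 ± 0.31 (SE) in ASC3-like and 0.53 ± 0.29 in ASC2-like cells.

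ASC1-like cells differed from this. Rbp4 was 19.6 and 27.5 CPM at RT (mean 23.6 ± 5.6, SD, n = 2), 114.5 and 68.1 CPM in COLD (91.3 ± 32.8, n = 2), and 101.9 and 28.9 CPM in CL (65.4 ± 51.6, n = 2). The lower COLD value was above the higher RT value, while the second CL library was next to the RT values. The COLD change was 2.10 ± 0.44 on the log2 scale (SE; edgeR adjusted p = 0.0175), where 11.9% of the genes tested in ASC1-like cells were called. The call was lost without RT replicate 1 (adjusted p = 0.0991), RT replicate 2 (0.108) or COLD replicate 1 (0.0833), with log2 fold changes of 1.74 to 2.39 over the 6 libraries left out in turn. The CL change was 1.55 ± 0.45 and was not called (adjusted p = 0.177). With the replicate number as a block its adjusted p was 0.0317, although the deviations of same-numbered RT and CL samples correlated at -0.146 in this class. The CL change rested on the CL libraries, with 0.65 without CL replicate 1 and 2.17 without CL replicate 2.

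2 clusters made up the ASC1-like class, and their shares differed between groups. A cluster led by Cxcl10 and Cxcl9, with 3 of 7 ASC1 markers raised, held 3.99% and 7.04% of ASC1-like cells at RT, 89.2% and 92.2% in COLD, and 69.5% and 39.1% in CL; a cluster led by Smoc2 and Cxcl14, with 5 of 7 raised, held the rest. Rbp4 was higher in COLD within each of them. In the Cxcl10/Cxcl9 cluster it went from 18.97 and 31.1 CPM at RT to 111 and 68.3 CPM in COLD, and in the Smoc2/Cxcl14 cluster from 19.6 and 27.2 to 150 and 65.4 CPM. In both clusters the COLD libraries lay above the RT libraries.

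Rbp4 was also read in classes where it stood below 8 CPM at RT. Adipocyte-like cells numbered 478 in CL replicate 1, 112 in COLD replicate 1, 91 in COLD replicate 2 and 38 in CL replicate 2, with 12 and 0 at RT. In VEC-like cells it was 5.49 and 4.22 CPM at RT, 48.5 and 7.51 CPM in COLD, and 54.3 and 8.89 CPM in CL. In mural cells it was 3.56 and 7.76 CPM at RT, 37.4 and 10.9 CPM in COLD, and 90.0 and 8.22 CPM in CL, and Schwann-like cells had 308 CPM in CL replicate 1 against 0 in both RT libraries. COLD replicate 1 and CL replicate 1 were thus the high libraries in each of these classes; the COLD change in VEC-like cells was 2.36 ± 0.97 (adjusted p = 0.458) and was 0.51 without COLD replicate 1. The summed level of 10 mature adipocyte markers other than Fabp4 moved in the same libraries: in VEC-like cells it was 461 and 638 CPM at RT, 1248 and 388 CPM in COLD, and 3093 and 447 CPM in CL. In ASC1-like cells that sum was 407 and 370 CPM at RT, 387 and 297 CPM in COLD, and 427 and 223 CPM in CL, and the number of the 11 markers above 5 CPM was 4 and 5 at RT, 11 and 9 in COLD, and 11 and 9 in CL. In COLD replicate 2, Rbp4 stood at 68.1 CPM in ASC1-like cells beside 7.51 CPM in VEC-like and 10.9 CPM in mural cells of the same library. The part of adipocyte RNA in the ASC1-like value was not tested.

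The Adrb1 line had 1 library per group and no test. In ASC1-like cells Rbp4 was 20.03 CPM (95% interval 14.2 to 28.1) in WT and 37.4 CPM (27.7 to 48.9) in KO at RT, against 134 CPM (127 to 141) in WT and 151 CPM (142 to 160) in KO in the cold. ASC3-like cells went from 107 to 185 CPM in WT and from 127 to 221 CPM in KO. ASC2-like cells went from 4.52 CPM (2.57 to 7.56) to 54.7 CPM (47.1 to 63.4) in WT and from 11.6 CPM (6.86 to 18.8) to 52.1 CPM (43.9 to 61.5) in KO. The cold libraries were thus higher in all 3 subtypes of both genotypes. VEC-like cells went from 2.43 CPM (0.298 to 8.88) to 16.4 CPM (8.62 to 27.7) in WT, where the intervals overlapped, and from 0 CPM (at most 3.31) to 14.8 CPM (7.26 to 27.9) in KO. Cthrc1-high cells went from 4.13 CPM (1.14 to 10.7) to 53.5 CPM (35.6 to 77.5) in WT and from 5.42 CPM (0.141 to 30.97) to 53.1 CPM (31.7 to 82.1) in KO. Immune cells of Lin- went from 1.61 to 47.3 CPM in WT and from 3.88 CPM (1 count) to 15.01 CPM (10 counts) in KO, where the intervals overlapped.

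**Figure D3:**
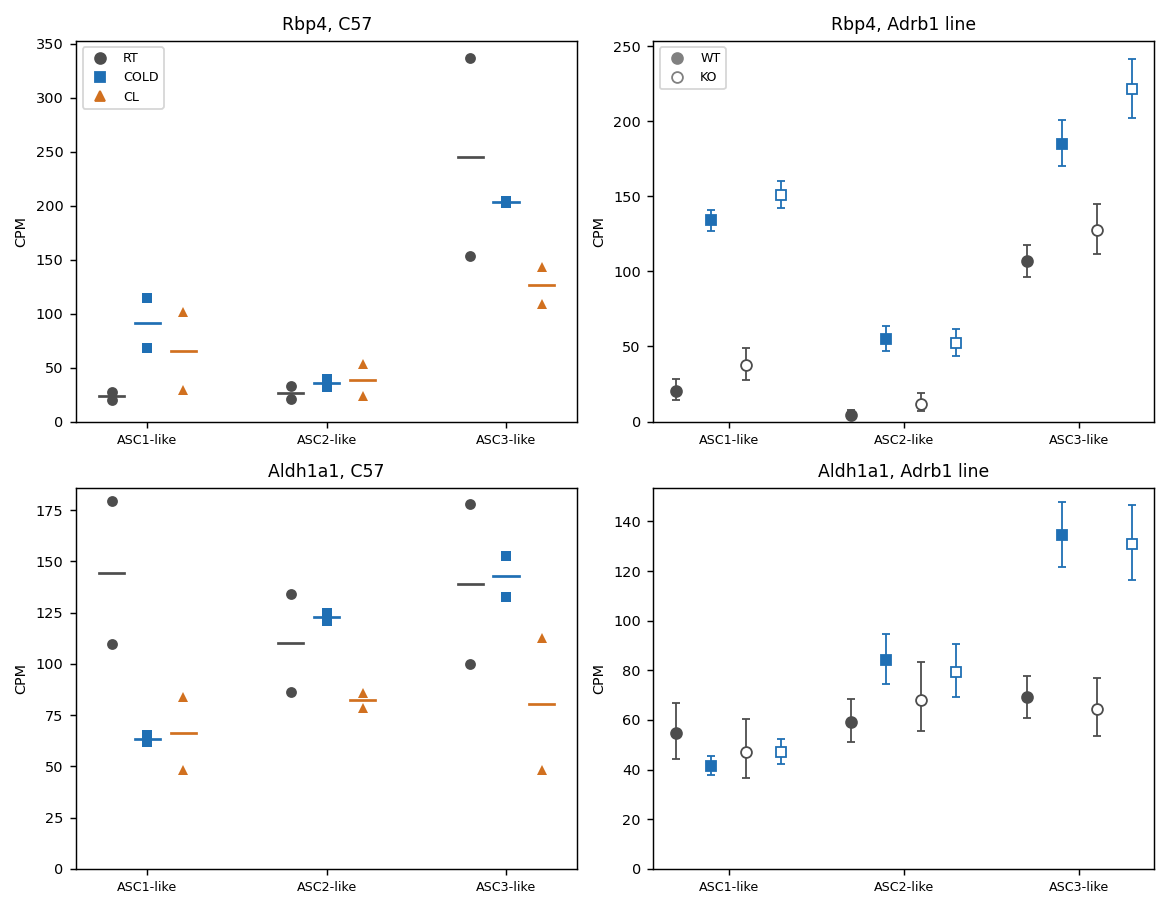
CPM of Rbp4 (top) and Aldh1a1 (bottom) in the 3 stromal subtypes, on the left 1 point per C57 library with a line at the mean of 2, on the right 1 point per library of the Adrb1 line with its 95% exact Poisson interval, filled for WT and open for KO. Rbp4 in ASC1-like cells lies at 19.6 to 37.4 CPM in the 4 RT libraries and at 68.1 to 151 CPM in the 4 cold libraries.

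Stra6 (chromosome 9: 58063793 to 58154004), the membrane receptor for RBP4, was read in C57 mice almost wholly in 1 small cluster. Of its 39 counts in the C57 libraries, 35 (89.7%) came from the Sfrp5/Cldn1 cluster, 425 cells over all libraries led by Sfrp5, Lypd2, Spp1, Apod and Cldn1 that no marker list named. Its level there was 126 and 18.5 CPM at RT, 52.7 and 18.1 CPM in COLD, and 113 CPM in the CL library with 20 cells. These values rest on 1 to 18 counts per library and show no order of treatments. 3 libraries of the Adrb1 line had 20 cells of the cluster and 1, 5 and 1 Stra6 counts. In that line the gene was read in other stromal cells too: in the WT in the cold, ASC2-like cells had 7 counts (2.13 CPM, 0.857 to 4.39) and Cthrc1-high cells 5 counts (9.56 CPM, 3.11 to 22.3), against 26.6 CPM (8.64 to 62.1) in the Sfrp5/Cldn1 cluster of the same library. Stra6 passed the count filter in no class.

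Aldh1a1 (chromosome 19: 20492583 to 20643463) encodes a cytosolic retinaldehyde dehydrogenase, and its close paralog Aldh1a7 lies next to it at 20692953 to 20727556, so that reads of the pair may be shared. It was highest in Schwann-like cells of both fractions. In those of Lin- all 7 Schwann markers were above 5 CPM in every library, and Aldh1a1 measured 456 and 789 CPM at RT, 408 and 518 CPM in COLD, and 260 and 566 CPM in CL, a set of values that overlap between treatments (COLD against RT -0.40 ± 0.61, adjusted p = 0.891). The Adrb1 line gave 386 to 545 CPM, and the Schwann-like cells of Lin+ gave 382 and 772 CPM in the 2 C57 libraries with 20 cells and 299.9 CPM (211 to 416) in the WT in the cold. No other class came near: the lowest Schwann-like value of 260 CPM exceeded the highest value of every ASC class.

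In C57 mice the ASC classes came next and overlapped each other. Aldh1a1 was 48.1 to 178 CPM in ASC3-like, 78.5 to 134 CPM in ASC2-like and 48.4 to 179 CPM in ASC1-like cells. VEC-like cells stood at 2.33 to 4.57 CPM and macrophage-like cells at 0 to 0.784 CPM. Erythroid-like cells of Lin+ were the exception among blood cells, with 18.9 to 103 CPM in C57 and 49.4 to 156 CPM in the Adrb1 line. In that line at RT they stood above the ASC classes, with 156 CPM in WT and 110 CPM in KO. In KO in the cold the Sfrp5/Cldn1 cluster had 173 CPM (119 to 249), against 131 CPM (116 to 147) in ASC3-like cells.

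Aldh1a1 was lower in ASC1-like cells after cold, without passing the threshold. It was 110 and 179 CPM at RT (145 ± 49, SD, n = 2), 61.9 and 65.2 CPM in COLD (63.5 ± 2.3) and 48.4 and 83.8 CPM in CL (66.1 ± 25.03). Each COLD and CL value was below each RT value. The COLD change was -0.98 ± 0.28 (adjusted p = 0.0555) and the CL change -0.81 ± 0.29 (adjusted p = 0.264). With the replicate number as a block the COLD change was called (adjusted p = 0.0219), as it was without CL replicate 1 (0.00797) or CL replicate 2 (0.0067). Without 1 of the RT or COLD libraries it was -1.08 to -0.90, with adjusted p from 0.143 to 0.279. The CL change was -0.39 without CL replicate 1 and -1.48 without CL replicate 2. Within the Cxcl10/Cxcl9 cluster it was 81.3 and 117 CPM at RT against 60.1 and 62.5 CPM in COLD, and within the Smoc2/Cxcl14 cluster 111 and 184 CPM at RT against 82.6 and 109 CPM in COLD. The ASC1-like values of the Adrb1 line, at RT and in the cold, were 54.8 CPM (44.4 to 66.7) and 41.4 CPM (37.7 to 45.3) in WT and 47.2 CPM (36.6 to 60.5) and 47.0 CPM (42.1 to 52.2) in KO, with intervals that overlapped in both genotypes.

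In C57 mice the Aldh1a1 levels of ASC2-like and ASC3-like cells overlapped between RT and COLD. ASC2-like cells held 86.3 and 134 CPM at RT against 121 and 125 CPM in COLD, and ASC3-like cells 99.9 and 178 CPM at RT against 133 and 153 CPM in COLD. The difference between the COLD response of 2 subtypes was tested as a class by treatment term with the library as a block. 4 of 18 such tests of the members were called, where the background was 4.42%, and they were Aldh1a1 and Rbp4, each in ASC2-like against ASC1-like (background 7.41%) and in ASC3-like against ASC1-like cells (5.37%). Aldh1a1 responded 1.28 ± 0.20 higher in ASC2-like (adjusted p = 0.0015) and 1.16 ± 0.17 higher in ASC3-like cells (0.00235). Rbp4 had a response in ASC2-like cells minus that in ASC1-like cells of -1.49 ± 0.26 (0.00267), and for ASC3-like cells minus ASC1-like cells the value was -2.10 ± 0.51 (0.0356). The last of these was lost without either RT or either COLD replicate (adjusted p up to 0.258, difference -2.49 to -1.73), and the other 3 held with each replicate left out. The Adrb1 line, with 1 library per group and no test, did not repeat all of them. Its log2 ratio of the cold to the RT level of Rbp4 was 2.74 for ASC1-like cells, 3.59 for the ASC2-like and 0.80 for the ASC3-like cells of WT, and 2.01, 2.17 and 0.80 in the same order for KO. The ASC2-like ratio was thus not below the ASC1-like one, opposite in sign to the C57 difference by 0.85 in WT and 0.16 in KO, whereas the ASC3-like ratio was below it in both genotypes. For Aldh1a1 the ASC3-like level was 69.1 CPM (60.97 to 77.8) at RT and 134 CPM (122 to 148) in the cold in WT and 64.6 CPM (53.5 to 77.1) and 131 CPM (116 to 147) in KO, and the ASC2-like level 59.3 and 83.96 CPM in WT and 68.2 and 79.4 CPM in KO. The intervals at RT and in the cold overlapped in the ASC2-like cells of KO and not in the other 3 pairs. CL gave 0 called differences among 18, background 0.414%. In C57 mice the Cxcl10/Cxcl9 cluster held 3.99% and 7.04% of ASC1-like cells at RT and 89.2% and 92.2% in COLD. In the Adrb1 line it held 50.7% at RT and 68.6% in the cold in WT, and 56.6% and 72.2% in KO. Its C57 median of Aldh1a1 was 61.3 CPM against 110 CPM in the Smoc2/Cxcl14 cluster, and that of Rbp4 49.7 against 47.7 CPM. The part of these shares in the differences was not tested.

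Aldh1a2 (chromosome 9: 71215789 to 71296243), which makes retinoic acid in several antigen-presenting cells, was highest in dendritic-like cells. Migratory DC-like cells, which raised 7 of 7 markers such as Ccr7, Fscn1 and Ccl22, held 98.1 and 76.7 CPM at RT, 33.1 and 46.4 CPM in COLD, and 90.7 and 126 CPM in CL. Both COLD libraries were below the other 4. The cDC2/moDC-like cells had 20.6 and 31.2 CPM at RT, 5.24 and 9.41 CPM in COLD, and 15.9 and 22.8 CPM in CL, again with the COLD libraries lowest; these values pool 2 clusters whose shares differed between the groups. cDC1-like cells had 0 to 7.20 CPM.

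In all dendritic-like cells together, Aldh1a2 was 18.3 and 25.7 CPM at RT (22.002 ± 5.2, SD, n = 2), 7.05 and 11.03 CPM in COLD (9.04 ± 2.81) and 14.2 and 22.3 CPM in CL (18.2 ± 5.7). The groups RT and COLD did not overlap. The COLD change was -1.50 ± 0.35 (edgeR adjusted p = 0.0305), where 13.4% of the genes tested in dendritic-like cells were called. CL gave -0.41 ± 0.37 (adjusted p = 0.604). The call was lost without RT replicate 1 (0.109), RT replicate 2 (0.137) or COLD replicate 1 (0.127), with values of -1.88 to -1.19. In migratory DC-like cells alone, a class chosen for the test after its values were seen, the COLD change was -1.37 ± 0.36 and was not called (adjusted p = 0.0619). A test of the cDC2/moDC-like cells alone, added after the data were seen and not among the tests counted above, gave -2.06 ± 0.40. It was called (edgeR adjusted p = 0.0167), where 12.2% of the genes tested in that class were. It is not read as a change of that cell type. 1 of the clusters carried most of the gene, had several macrophage genes among its leading genes and differed in share between RT and COLD.

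The makeup of the dendritic-like class differed as well. Migratory cells, in which Aldh1a2 is highest, were 9.31% and 7.82% of dendritic-like cells at RT and 14.6% and 15.5% in COLD, and the summed level of the 7 migratory markers was 752 and 736 CPM at RT against 1228 and 1178 CPM in COLD. Within cDC2/moDC-like cells, a cluster led by Lyz1 and Retnla carried more Aldh1a2. It raised 4 of 7 cDC2/moDC markers and 2 of 8 markers of lipid-associated macrophages, and its 10 leading genes also held Mmp12, Ear2, Fcrls, Fn1 and Lpl. Aldh1a2 there was 33.5 and 57.4 CPM at RT against 15.9 and 29.1 CPM in COLD. Without this cluster, an alternative chosen after seeing the data, all dendritic-like cells held 14.3 and 11.8 CPM at RT against 5.91 and 8.85 CPM in COLD, and the change of -1.08 ± 0.38 was no longer called (edgeR adjusted p = 0.107). The larger cluster, led by Cd209a and Tnfsf9, had 7.53 and 0 CPM at RT against 1.74 and 2.95 CPM in COLD. That larger cluster held 111 and 122 cells at RT and 1021 and 746 cells in COLD, while the Lyz1/Retnla cluster held 112 and 114, and then 234 and 164 cells.

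In the Adrb1 line the cDC2/moDC-like cells had 86.1 CPM (68.7 to 106) in WT and 68.8 CPM (48.9 to 94.9) in KO at RT, and 10.7 CPM (8.12 to 14.0) and 17.5 CPM (12.1 to 24.7) in the cold. The cold libraries were lower in both genotypes, with the kit version and the shares of clusters changing alongside. The Lyz1/Retnla cluster had 43.8 to 136 CPM in this line, and the Cd209a/Tnfsf9 cluster 1.72 to 22.1 CPM. Without the first, 129 of 213 dendritic-like cells remained in WT at RT and 1692 of 1839 in the cold, and 77 of 118 and 436 of 477 in KO. Migratory DC-like cells had 61.2 CPM (48.6 to 77.2) in WT and 88.5 CPM (62.1 to 123) in KO in the cold, and fewer than 20 cells at RT. In all dendritic-like cells without the Lyz1/Retnla cluster, WT went from 44.3 CPM (32.8 to 58.9) to 8.85 CPM (7.18 to 10.8), whereas KO went from 5.86 CPM (1.61 to 15.2; 4 counts in 77 cells) to 15.6 CPM (11.7 to 20.5). Outside immune cells Aldh1a2 was low, at 2.02 to 9.54 CPM in ASC3-like cells of C57 mice. Cthrc1-high cells reached 15.6 CPM in C57 mice, from 1 count. In the Adrb1 line the WT in the cold had 18.4 CPM (15.98 to 21.1; 208 counts) in ASC1-like cells and 11.05 CPM (8.18 to 14.5; 50 counts) in cycling cells, against 3.19 CPM (2.02 to 4.78) and 3.04 CPM (0.988 to 7.10) in the KO in the cold and 0 counts in both RT libraries. ASC3-like cells of the KO in the cold had 10.3 CPM (6.52 to 15.4).

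**Figure D4:**
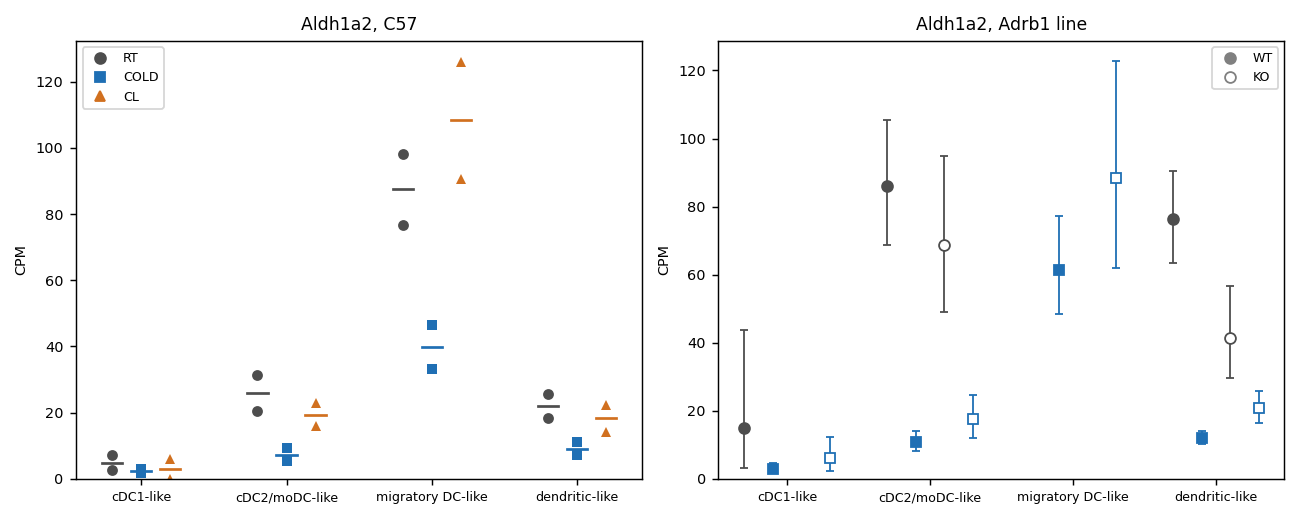
CPM of Aldh1a2 in cDC1-like, cDC2/moDC-like, migratory DC-like and all dendritic-like cells, on the left 1 point per C57 library with a line at the mean of 2, on the right libraries of the Adrb1 line with 95% exact Poisson intervals, filled for WT and open for KO, where at least 20 cells were present. In migratory DC-like cells of C57 mice the COLD libraries, at 33.1 and 46.4 CPM, lie below RT at 76.7 and 98.1 CPM.

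Aldh1a3 (chromosome 7: 66390892 to 66427477), another retinaldehyde dehydrogenase, marked ASC2-like cells, the class that carries Pi16 and Dpp4. These cells held 75.6% of its counts in C57 mice. It was 173 and 303 CPM at RT, 197 and 140 CPM in COLD, and 195 and 185 CPM in CL, and 228 to 305 CPM over the Adrb1 line. ASC1-like cells had 0.520 to 6.76 CPM, so that the lowest ASC2-like library was above the highest ASC1-like one. Neither treatment changed the ASC2-like level past the threshold (COLD -0.37 ± 0.23, adjusted p = 0.692; CL -0.04 ± 0.23, adjusted p = 0.977).

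Within the ASC2-like class the gene was uneven. A cluster led by Krtdap, Dmkn and Sbsn had 227 to 396 CPM in the 6 C57 libraries, and a cluster led by Has1, Ptgs2 and Cxcl13 had 51.1 to 94.7 CPM. The same order held in the Adrb1 line, with 346 to 447 CPM against 79.2 to 173 CPM. The first cluster held 56.2% and 74.1% of ASC2-like cells at RT, 59.5% and 52.8% in COLD, and 50.4% and 41.6% in CL.

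Cthrc1-high cells, activated stromal cells whose cluster was led by Cthrc1 and Lrrc15, came next in C57 mice with 87.4 CPM in the RT library with 20 cells, 49.7 CPM in the COLD library and 98.9 and 112 CPM in CL. For the Adrb1 line, Cthrc1-high cells had 147 CPM (124 to 174) in WT and 48.6 CPM (22.9 to 94.97) in KO at RT, whereas the cold libraries held 21.2 and 41.6 CPM. Schwann-like cells held 35.6 to 78.6 CPM in C57 mice and 50.5 to 120 CPM in the Adrb1 line, where Cthrc1-high cells were thus above them only in WT at RT. Cycling and differentiating cells had 3.95 and 7.99 CPM in COLD and 20.3 and 37.96 CPM in CL, a difference of -2.27 ± 0.48 that was not called (COLD against CL, adjusted p = 0.114) and was called with the replicate number as a block (-2.33 ± 0.23, adjusted p = 0.0044). The cluster of this class led by Cenpf and Hmmr had the most Aldh1a3, with 11.7 and 18.4 CPM in COLD and 44.5 and 81.6 CPM in CL, and it was 27.1% and 39.6% of the class in COLD and 48.0% and 44.5% in CL. In the Adrb1 line luminal epithelial-like cells as a whole had 68.5 to 159 CPM, and a luminal epithelial-like cluster led by Wfdc18, Ltf and Csn3 had 385 CPM in 67 WT cells and 558 CPM in 35 KO cells in the cold.

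**Figure D5:**
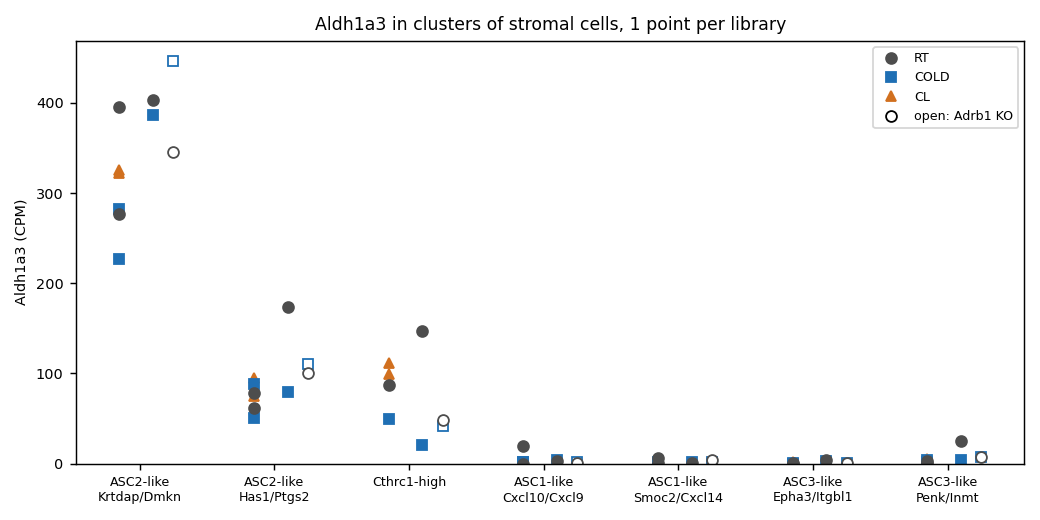
CPM of Aldh1a3 in 7 clusters of stromal cells, 1 point per library with at least 20 cells, C57 libraries on the left of each position and the Adrb1 line on the right, with open symbols for KO. The Krtdap/Dmkn cluster lies at 227 to 447 CPM and the ASC1-like and ASC3-like clusters at most at 24.7 CPM.

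Crabp1 (chromosome 9: 54764748 to 54773110) and Crabp2 (chromosome 3: 87948693 to 87953372) encode the cytosolic binders of retinoic acid, and CRABP2 is known to hand it to the receptors. Crabp1 was steady in the Sfrp5/Cldn1 cluster, with 22.9 and 37.1 CPM at RT, 35.1 and 36.1 CPM in COLD and 31.4 CPM in CL, from 2 to 5 counts per library, and with 70.2, 90.5 and 119 CPM in the Adrb1 line. In most other stromal cells of C57 mice it was read mainly in CL replicate 1. That library had 94.8 CPM in Cthrc1-high, 67.6 CPM in cycling, 28.6 CPM in Cilp/Myoc cells, 12.7 CPM in ASC1-like cells and 196 CPM in the 174 cells that clustered with the luminal epithelial-like cells. Schwann-like cells had 0 to 21.4 CPM over the 6 C57 libraries and 5.86 to 17.01 CPM over the Adrb1 line, from at most 5 counts per library. In the Adrb1 line Crabp1 was also read in the cold in Cilp/Myoc cells, at 13.6 CPM (7.61 to 22.4) in WT and 15.2 CPM (7.86 to 26.6) in KO, and in ASC3-like cells of the WT, at 10.2 CPM (6.93 to 14.5). CL replicate 2 had 0.552 CPM in Cthrc1-high and 0.961 CPM in cycling cells, so the 2 CL libraries were far apart. In cycling cells the gene passed the count filter only through CL replicate 1, so that its test there restates the 1 high library and shows no difference between COLD and CL.

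Crabp2 was low in C57 mice, with 133 counts over all classes. It was highest in the Sfrp5/Cldn1 cluster, at 22.9 and 37.1 CPM at RT, 35.1 and 0 CPM in COLD and 0 CPM in the CL library with 20 cells, from at most 2 counts per library. The Cenpf/Hmmr cluster of cycling cells reached 11.4 CPM, and Cthrc1-high cells had at most 2.72 CPM. Cycling cells as a class had 0.560 and 0.479 CPM in COLD and 3.89 and 4.80 CPM in CL. In that class the gene passed the count filter only through CL, so its test is not read as a difference between treatments. In the Adrb1 line, Cthrc1-high cells had 130 CPM (101 to 165; 68 counts in 88 cells) in WT and 124 CPM (90.9 to 167; 45 counts in 72 cells) in KO in the cold, against 0 counts in WT and 2 counts in KO at RT. Both cold libraries of that line were thus high and the cold C57 library was not. Luminal epithelial-like cells of the same line also held Crabp2, at 54.6 and 48.4 CPM in the cold, and the 7 luminal markers summed to 31.8 and 19.4 CPM in the Cthrc1-high cells of those libraries, against 28556 and 30873 CPM in the luminal cells themselves. Their part in the Cthrc1-high value was not tested.

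Rarb (chromosome 14: 16430839 to 17082331), a retinoic acid receptor whose own gene is a known target of retinoic acid, was low and broad. Its highest mean over C57 libraries was in the Sfrp5/Cldn1 cluster, at 0 and 55.6 CPM at RT, 0 and 72.1 CPM in COLD and 6.19 CPM in CL, from 0 to 8 counts per library, a mean of 26.8 ± 34.4 CPM (SD, n = 5). By the mean over all cells of a class, lymphatic endothelial-like cells were highest at 29.5 CPM, and their 4 libraries with 20 cells had 0 to 33.9 CPM from at most 2 counts. Schwann-like cells had 0 to 25.5 CPM. The ranges of all 3 classes overlapped that of mural cells. Mural cells had 15.2 and 21.3 CPM at RT, 23.6 and 17.5 CPM in COLD, and 21.95 and 18.4 CPM in CL. ASC2-like cells had 12.6 and 30.1 CPM at RT, 15.3 and 16.5 CPM in COLD, and 12.05 and 15.04 CPM in CL, while ASC1-like cells stayed at 3.30 to 6.93 CPM. The groups overlapped in the mural and ASC2-like cells, and no Rarb test was called, with COLD changes from -0.46 ± 0.36 in ASC1-like to 0.26 ± 0.34 in mural cells. The ASC2-like values of the Adrb1 line were 18.3 CPM (13.99 to 23.6) at RT and 11.2 CPM (7.93 to 15.5) in the cold in WT, with overlapping intervals, and 22.8 CPM (15.7 to 32.1) and 8.70 CPM (5.65 to 13.1) in KO, without overlap.

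Promoter windows (250 bases before to 50 after a gene's start; RefSeq, GRCm38.p6) were searched on both strands for the direct repeats that RAR and RXR pairs are known to bind: 2 copies, in 1 orientation, of the motif AGGTCA or of its variants GGGTCA and then AGTTCA and also GGTTCA, with 1, 2 or 5 bases between them. 12 windows of 7 of the genes were available, and 1 held such a repeat, with 5 bases between the copies, a pattern found in 0.0974% of all 32851 windows; spacings of 1 and 2 were in 0.222% and 0.268%. It is in a window of Rarb, 53 to 37 bases before that window's start, on the minus strand at chr14:16575513-16575529. This start lies within the span of Rarb, 16430839 to 17082331, and not at the outer end of the gene. The stretch is shown because it carries the match, with the repeat in capitals.
Rarb: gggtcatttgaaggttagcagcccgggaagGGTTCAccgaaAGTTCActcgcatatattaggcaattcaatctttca
A match of letters is a description of the window.

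Cyp26b1 (chromosome 6: 84571414 to 84593908), which inactivates retinoic acid, was highest in the same Sfrp5/Cldn1 cluster as Stra6. It had 57.2 and 200 CPM there at RT, 35.1 and 99.1 CPM in COLD and 62.5 CPM in CL, from 2 to 11 counts per library, and 94.8 to 192 CPM in the 3 Adrb1-line libraries with 20 cells. Among VEC-like cells it was highest in a cluster led by Vwf, Selp and Lrg1, which had 7.81 to 56.1 CPM in C57 and 29.6 to 96.3 CPM in the Adrb1 line. The cluster led by Car4 and Aplnr had a median of 2.67 CPM in C57. RT replicate 2 was the exception, with 53.6 CPM in the Car4/Aplnr cluster, above the 37.6 CPM of its Vwf/Selp cluster.

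ASC3-like cells had 5.59 and 21.7 CPM of Cyp26b1 at RT, 7.54 and 16.1 CPM in COLD, and 8.27 and 16.4 CPM in CL, and in each group the replicate 2 library was the higher. In ASC1-like cells it was 1.21 and 5.65 CPM at RT, 3.85 and 5.39 CPM in COLD and 8.33 and 5.15 CPM in CL, a CL change of 1.47 ± 0.55 that was not called (adjusted p = 0.283) and was 0.67 without RT replicate 1 and 2.25 without RT replicate 2. No Cyp26b1 test was called. Macrophage-like and other immune classes of Lin+ were at or near 0.

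46 other genes of the pathway were listed, of which 45 were in the matrices. In ASC1-like cells 6 of the 27 tested were called in COLD, 5 of them down, where 11.9% of all genes were called. They were Rarres1 (7.72 and 20.8 CPM at RT, 1.92 and 2.13 CPM in COLD, log2 fold change -2.46 ± 0.37), Scarb1, which takes up lipoprotein lipids and carotenoids (-1.89 ± 0.37), Fabp5, a fatty acid binder that can also carry retinoic acid (-1.56 ± 0.37), Hic1 (-0.90 ± 0.20) and the receptor Rarg (-0.81 ± 0.18). The receptor Rxrg rose, from 3.49 and 3.64 CPM to 8.79 and 9.86 CPM (1.43 ± 0.35). The median of the 27 was 0.16, against 0.01 for all genes. The Cxcl10/Cxcl9 cluster held 3.99% and 7.04% of ASC1-like cells at RT and 89.2% and 92.2% in COLD. The part of these shares in the 6 calls was not tested, and fits with 1 replicate left out are not given for them. ASC2-like and ASC3-like cells had 0 called among 27 and 24, with backgrounds of 0.507% and 0.0968%. An unadjusted p under 0.05 was seen for 2 and 1 of them, and for 1056 of 10846 and 686 of 10335 of all genes.

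In vascular cells 3 calls were made among these genes. In VEC-like cells 2 of 23 fell in COLD (background 0.254%): Adh1, an alcohol dehydrogenase that can oxidize retinol, from 87.0 and 104 CPM to 29.3 and 26.9 CPM (-1.74 ± 0.20, adjusted p = 0.0345), and Rarres1, from 37.9 and 64.7 CPM to 5.65 and 3.97 CPM (-3.33 ± 0.43, 0.0345). In mural cells Scarb1 fell from 82.4 and 81.9 CPM to 29.5 and 21.96 CPM (-1.63 ± 0.28, adjusted p = 0.0426), 1 of 24 tested (background 0.312%). The CL values of Adh1 in VEC-like cells, 42.1 and 30.9 CPM, were also below both RT values, and no pathway gene was called there in CL.

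In macrophage-like cells 9 of 24 were called in COLD, 6 up and 3 down, where 36% of all genes were called. Fabp5 rose from 151 and 77.0 CPM to 3246 and 3344 CPM (4.90 ± 0.53), and Dhrs9, a retinol dehydrogenase, from 0.453 and 0.390 CPM to 12.0 and 11.2 CPM (4.77 ± 0.79). Rdh10, the enzyme that makes retinal from retinol in embryos, fell from 9.97 and 9.40 CPM to 3.29 and 3.19 CPM (-1.53 ± 0.30), and the receptor Rxra fell by 0.77 ± 0.26 on the log2 scale. CL called 4 of the 24 (background 8.01%): Fabp5, Dhrs9 and Scarb1 up and Rdh10 down. The macrophage-like cells of each group sat in different clusters. A cluster led by Gpnmb and Syngr1 held 0.956% and 0.844% of them at RT, 45.1% and 56.6% in COLD and 36.96% and 21.6% in CL, one led by Cxcl10 and Dmkn 1.78% and 4.08%, then 46.6% and 40.3%, and 14.9% and 11.04%, one led by Lilra5 and Mgl2 84.8% and 85.8% at RT, 6.78% and 1.82% in COLD and 21.04% and 46.8% in CL, and one led by Cd209f and Cd209g 12.4% and 9.28%, then 1.58% and 1.28%, and 27.1% and 20.6%. Within these clusters the changes of the class were only partly seen. Fabp5 was 69.9 and 42.8 CPM at RT against 242 and 115 CPM in COLD in the Lilra5/Mgl2 cluster, but 47.2 and 42.8 CPM against 79.7 and 13.5 CPM, which overlap, in the Cd209f/Cd209g cluster; the Gpnmb/Syngr1 cluster had 4076 and 4121 CPM in COLD. Rdh10 was 9.41 and 10.1 CPM at RT against 1.07 and 0 CPM in COLD in the Lilra5/Mgl2 cluster, and 21.6 and 10.2 CPM against 14.3 and 6.88 CPM, again overlapping, in the Cd209f/Cd209g cluster. Dhrs9 was 0.522 and 0 CPM at RT against 3.19 and 0 CPM in COLD in the Lilra5/Mgl2 cluster, 0 in both RT libraries against 4.74 and 0 CPM in the Cd209f/Cd209g cluster, and 7.16 CPM in the 1 RT library with 20 cells against 9.66 and 6.41 CPM in the Cxcl10/Dmkn cluster. Dhrs9 of the Adrb1 line went the other way in the Cxcl10/Dmkn cluster, with 70.4 CPM (81 cells) in WT and 74.8 CPM (34 cells) in KO at RT against 8.87 and 11.6 CPM in the cold. The part of the change of clusters in the calls of the class was not tested. In dendritic-like cells 6 of 19 were called in COLD (background 13.4%), with Dhrs3, which returns retinal to retinol, rising from 29.3 and 35.5 CPM to 67.4 and 64.4 CPM (0.82 ± 0.15) and the receptors Rxra (-1.60 ± 0.28) and Rara (-0.61 ± 0.17) falling. Dhrs3 also rose in CL, to 82.3 and 74.2 CPM (1.10 ± 0.16, edgeR adjusted p = 0.0233). In CL 2 of 19 were called (background 0.715%). Migratory cells were 9.31% and 7.82% of dendritic-like cells at RT and 14.6% and 15.5% in COLD. Outside the Lyz1/Retnla cluster lay 339 of 451 and 295 of 409 dendritic-like cells at RT, and 2402 of 2636 and 1830 of 1994 in COLD. The part of these shares in the dendritic-like calls was not tested.

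The genes whose levels over 124 class and library sums of 27 C57 classes were most like those of a member were found by Pearson's r of log2(CPM + 1) among 11103 genes. The sums of a library share its depth and free RNA, so r is a description. Aldh1a1 was closest to Scn7a (r = 0.90), Sfrp1 (0.90) and Vgll3 (0.89), and Aldh1a3 to Sema3e (0.88), Sema3c (0.88) and Nov (0.87). Aldh1a2 was closest to the chemokine genes Ccl22 (0.69) and Ccl17 (0.67) and to Il12b (0.58). Rbp4 was closest to Echdc2 (0.90), Nnmt (0.89) and Fgfrl1 (0.89), Stra6 to Lypd2 (0.84), Angptl7 (0.77) and Cldn22 (0.65), and Cyp26b1 to Zfp521 (0.83), Meox2 (0.82) and Bace2 (0.82).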

How the data were processed

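The authors aligned the reads to mm10 with Cell Ranger 3.0.1 and deposited expected counts, UMI counts per gene and cell after SoupX v1.0.1 had removed free RNA with Fabp4 and Car3 as genes that cells were taken not to express, so 97.2% to 99.6% of nonzero values per library were not whole. Cells with at most 10% mitochondrial reads, at most 15000 UMIs and, in Lin+, at most 4000 genes or, in Lin-, at least 100 genes were kept. Each fraction was clustered with scanpy 1.11.5 and leidenalg 0.10.2 (2000 variable genes, 30 components, Harmony over libraries, resolution 1), leaving out the 9 genes and the listed pathway genes, and classes were named from marker lists. Doublets were not removed in the main values; leaving out the top 6% of doublet scores was an alternative.

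Counts were summed per class and library, rounded, and tested with edgeR 4.0.16 (TMM, filterByExpr, quasi-likelihood) over the 6 C57 experiments, with Benjamini-Hochberg adjustment over all genes. A contrast needed 2 libraries of at least 20 cells in each group, except in fits with 1 replicate left out. There 1 library could stand for a group, the other groups supplied the spread, and adjusted p-values and calls are weak. The difference in response was a class by treatment term with the library as a block. The tests were checked on simulated data. Each replicate is 1 pool of mice. Libraries of 1 replicate number were merged as 1 experiment in the study's methods, so the numbers may pair the samples. Deviations of same-numbered samples correlated above 0.1 in 13 of 21 pairs of groups and classes (-0.146 to 0.451). The values were 0.123 to 0.451 for COLD with CL and 0.062 to 0.340 for RT with COLD, but -0.146 to 0.040 for RT with CL. A block thus has no backing in CL against RT. The main fit has no block and so leaves out the pairing in the other contrasts.

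The genes, lists and marker sets were chosen with earlier results of these data known. The genes named by pathway were at most 8 called per class, and the likeness list gave 3 genes for each member whose mean over both libraries of a C57 group reached 50 CPM in a class. Coordinates are of GRCm38.p6, the patch release of the mm10 assembly. Alternatives were DESeq2 1.42.0, RLE normalization, no count filter, the replicate block, cells of at least 1000 UMIs, both fractions summed, COLD against RT over the 8 experiments of both mouse lines, and leaving out each replicate. The fit over 8 experiments takes in the Adrb1 line, where cold and kit version cannot be told apart.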

Additional observations from a re-analysis of the deposited data

Results flagged for a closer look

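The COLD response of 2 genes differed between stromal subtypes by a class by treatment term (edgeR, adjusted over all genes, 2 libraries per group). For Aldh1a1 the log2 response was higher in ASC2-like than in ASC1-like cells by 1.28 and higher in ASC3-like than in ASC1-like cells by 1.16. For Rbp4 the response in ASC2-like cells minus that in ASC1-like cells was -1.49, and in ASC3-like cells minus ASC1-like cells -2.10. With class sums thinned to a common total the first 3 were called again (1.20, 1.30 and -1.57) and the last was not (-1.97, adjusted p = 0.0710). In the Adrb1 line, with 1 library per group and no test, the log2 ratio of the cold to the RT level minus that of ASC1-like cells was 0.85 in WT and 0.16 in KO for Rbp4 in ASC2-like cells, the other direction, and -1.94 and -1.22 in ASC3-like cells. For Aldh1a1 it was 0.91 and 0.22 in ASC2-like and 1.37 and 1.02 in ASC3-like cells. In C57 mice the clusters of the ASC1-like class differed in share between RT and COLD, and their part in these differences was not tested.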

How the results depend on the processing

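2 pools of mice per group and 3' counts limit these results, and low genes such as Stra6 and Crabp2 rest on few counts. The counts of calls below are given without the share of all genes called in the same setting. They therefore show no change particular to the members. The 2 calls of COLD against RT became 6 without a count filter and 0 to 4 with 1 replicate left out, with 0 without RT replicate 1, RT replicate 2 or COLD replicate 1. They stayed within 1.5 times under the other alternatives, with 3 under the replicate block. Those alternatives include the fit over both mouse lines, in which cold and kit version are confounded within the Adrb1 line. The 0 calls of CL against RT became 6 without a count filter, 1 with the replicate block and 0 to 3 with 1 replicate left out (3 without CL replicate 2). The 0 calls of COLD against CL became 7 without a count filter, 3 with the replicate block, 1 with both fractions summed, 1 without the shared barcodes (each with Crabp1 in cycling cells, which rests on CL replicate 1) and 0 to 3 with 1 replicate left out (3 without CL replicate 1 or CL replicate 2, 1 without COLD replicate 2); these were alternatives chosen after seeing the data, as were those on shared barcodes, on cDC2/moDC-like cells alone, on dendritic-like cells without the Lyz1/Retnla cluster (Aldh1a2 -1.08, adjusted p = 0.107) and on replicates left out of the difference in response. Called differences in the response to CL numbered 3 without a count filter and 0 to 4 with 1 replicate left out (4 without CL replicate 2), in place of 0. Taking the mean over cells kept the highest class of 7 of the 9 genes, and not of Crabp1 and Rarb. Among the 12 results against RT with an unadjusted p under 0.05, no direction was reversed in 174 values under alternatives. The uncalled CL change of Aldh1a2 in dendritic-like cells, -0.41, was reversed to 0.11 without the Lyz1/Retnla cluster. The cause of these changes was not tested.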
